A study of Mus musculus with 6 samples.

Results

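The mRNAs of the mitochondrial ribosomal proteins were examined in bEnd.3 cells, a mouse brain endothelial line transformed with polyoma middle T antigen. The genes were taken from the deposited FPKM table (fragments scaled to transcript length and to the fragments mapped in a library) as every row whose symbol starts with Mrpl or Mrps and a digit and whose mean over the 6 libraries is at least 1 FPKM. All 78 such rows met that minimum, out of 10400 genes that met it and 15917 rows in all. The libraries came from 3 samples with a hairpin against Npc1 (shNpc1, replicates 4, 5 and 6) and 3 with a control hairpin (shControl, replicates 1, 2 and 3; another label calls them WT). No further treatment, time or allele is given. Whether the samples came from separate cultures, or the 3 shNpc1 samples from the same hairpin, is not given. The p-values therefore rest on the spread among these 6 samples alone, which may be technical.

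The mitochondrial ribosome makes the few hydrophobic proteins that mitochondrial DNA encodes, all of them subunits of the respiratory chain and ATP synthase. Its RNAs are transcribed in mitochondria, but its proteins are encoded in the nucleus, made in the cytosol and imported. It consists of a large subunit, which forms peptide bonds, and a small subunit, which reads the mRNA. Some of its proteins have counterparts in the bacterial ribosome and others are found only in mitochondria. By the present names of the proteins, the 78 genes held 51 of the large subunit (30 shared with bacteria and 21 mitochondria-specific, among them Mrps18a and Mrps30 in spite of their symbols) and 26 of the small subunit (16 and 10). Mrps36 was left out of both, since its product is now known as a part of the 2-oxoglutarate dehydrogenase complex.

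Npc1, which encodes the membrane protein that moves cholesterol out of lysosomes, was measured as a check of the labels. It had 0.45, 1.20 and 0.97 FPKM in the shNpc1 libraries, against 6.31, 6.63 and 7.27 FPKM in the shControl libraries, so that 13.0% ± 5.70 (SD, n = 3) of the control mean was left (exact two-sided permutation p = 0.1, the smallest that 3 against 3 allow). The summed FPKM of a library lay between 661950 and 757026, and the number of reads is unknown. All 12 endothelial markers were in the table, with a summed level of 1807 to 1892 FPKM in shNpc1 and 1894 to 1925 FPKM in shControl libraries. Of the 10 that met the minimum 1 rose, Eng, and 0 fell (limma, adjusted p under 0.05), while 17.9% of all tested genes were called in either direction. Their log2 fold changes were positive for 3 and negative for 7, with a median of -0.11. For Eng, Kdr and Tie1 every shNpc1 value lay above every control, and for Pecam1, Cdh5 and Tek every one lay below. The defining markers Cldn5 and Vwf did not exceed 0.05 and 0.26 FPKM in any library. Markers of astrocytes, fibroblasts, neurons, oligodendrocytes and epithelium summed to at most 1.39 FPKM in any library. Of 6 markers of microglia and macrophages 3 were in the table. Of these, Cd68, a lysosomal membrane protein, had 214.4 to 257.2 FPKM in shNpc1 and 105.0 to 112.6 FPKM in shControl libraries, while Csf1r did not exceed 0.10 FPKM and Ptprc 0.02. Of 6 of pericytes and smooth muscle 5 were in the table, and of these Acta2 had 5.91 to 11.2 FPKM in shNpc1 and 1.27 to 1.68 FPKM in shControl libraries. Pdgfrb did not exceed 0.92 FPKM in any library, Tagln 0.14, Myh11 0.05 and Cspg4 0.02. The part of these markers in the results below was not tested.

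The 78 genes were expressed over a range of 56.9-fold in these cells, from a mean over the 6 libraries of 11.0 FPKM to one of 627.5 FPKM, with a median of 53.97 FPKM. The median of all tested genes was 15.5 FPKM. FPKM is a level per length of transcript, so a comparison between genes depends on the lengths used, which the sources do not give. The longest protein-coding transcript in GENCODE M21 had a median length of 1327.5 bases for the 78 genes and 3139 for 10247 tested genes. It was 478 bases for Mrpl33 and 488 for Mrps21. The part of length in these levels was not tested. Mrpl33, a large-subunit protein shared with bacteria, stood highest, with 664.4, 566.9 and 656.9 FPKM in shNpc1 and 588.8, 646.5 and 641.2 FPKM in shControl libraries. No other gene of the set came near it: the next were Mrps21, with a mean over the 6 libraries of 229.6 FPKM, Mrps18c with 223.6 and Mrpl18 with 201.7, whose libraries overlapped. Mrps21 had 202.7 to 258.8 FPKM in shNpc1 and 216.6 to 250.1 FPKM in shControl libraries. Mrps18c had 201.8 to 226.0 FPKM in shNpc1 and 210.0 to 255.2 FPKM in shControl libraries. Both encode small-subunit proteins shared with bacteria, and Mrpl18 encodes a large-subunit protein whose bacterial counterpart binds the smallest ribosomal RNA.

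At the low end stood Mrpl57, Mrps25, Mrpl41 and Mrpl19, with means over the 6 libraries of 11.0, 11.4, 11.7 and 14.2 FPKM. The first 3 encode mitochondria-specific proteins. Mrpl57 had 13.2, 10.7 and 11.9 FPKM in shNpc1 and 9.10, 11.5 and 9.81 FPKM in shControl libraries, which overlapped. Mrps25 had 11.8, 12.4 and 12.1 FPKM in shNpc1 and 10.3, 11.0 and 10.6 FPKM in shControl libraries, with no overlap but no call (log2 0.17, limma adjusted p = 0.112). These 3 lay within each other's spread. The subunits were close in level, with a median over genes of 54.6 FPKM for the large and 53.97 FPKM for the small subunit. Genes shared with bacteria had a median of 58.0 FPKM and mitochondria-specific genes one of 49.9 FPKM. The summed FPKM of the large-subunit genes was 2.12, 2.16 and 2.17 times that of the small-subunit genes in the shNpc1 libraries and 2.12, 2.10 and 2.16 times in the shControl libraries.

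**Figure D1:**
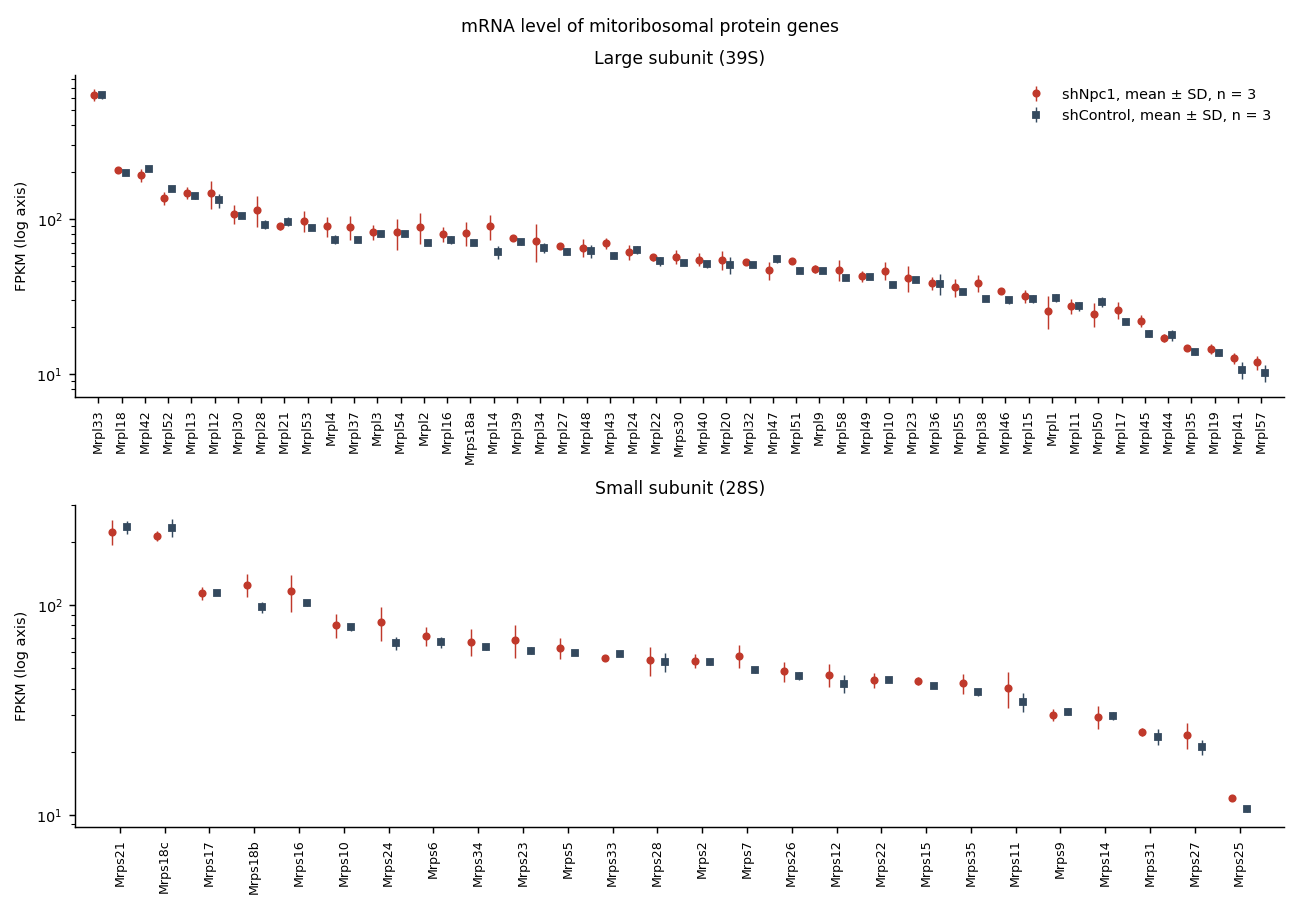
Mean FPKM ± SD (n = 3) of each large-subunit gene (top) and small-subunit gene (bottom) in shNpc1 (circles) and shControl (squares) libraries on a log axis, ordered by the mean over all 6 libraries. Mrpl33 stands at 627.5 FPKM and Mrpl57 at 11.0 FPKM, and the symbols of the groups lie close together for most genes.

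Few of these mRNAs differed past the test between shNpc1 and shControl libraries. On the log2(FPKM + 1) scale, which understates the change of low genes, 2 of the 78 rose and 0 fell at an adjusted p under 0.05 (limma, Benjamini-Hochberg over the 10400 tested genes), which is 2.56% of the set. Of all tested genes 17.9% were called, 1251 as higher and 613 as lower (5.89%). At an unadjusted p under 0.05, 12 of the 78 were higher (15.4%) and 1 was lower (1.28%), against 21.9% and 12.8% of all tested genes. Both called genes are of the large subunit. In bulk RNA, fewer cells and less RNA per cell cannot be told apart. The median log2 fold change of the 78 genes was 0.078, against 0.026 over all tested genes, and single genes ranged from -0.28 to 0.53. Without shNpc1 replicate 4 the order turned, with a median of 0.024 for the 78 genes and 0.031 for all tested genes. Positive values were found for 62 genes and negative ones for 16, against 5640 and 4760 of all tested genes. Without shNpc1 replicate 4 there were 44 positive and 34 negative values among the 78, and with quantile normalization 50 and 28.

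The intervals below are those of the main fit, hold for each gene alone and rest on the spread among these 6 samples. The 95% interval of the log2 fold change lay within 1 of zero in either direction for all 78 genes and within 0.5 for 65 of them, with a median distance of 0.22 from the estimate to either bound. The highest upper bound was 0.86, for Mrpl14, and the lowest lower bound -0.67, for Mrpl1. The estimates also moved with the processing and the libraries used, from 0.29 to 0.66 for Mrpl14 and from -0.44 to -0.037 for Mrpl1. Of the 78 genes, 18 had all 3 shNpc1 values above all 3 shControl values (23.1%) and 2 had all below (2.56%). Over all tested genes these shares were 27.4% and 16.1%.

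**Figure D2:**
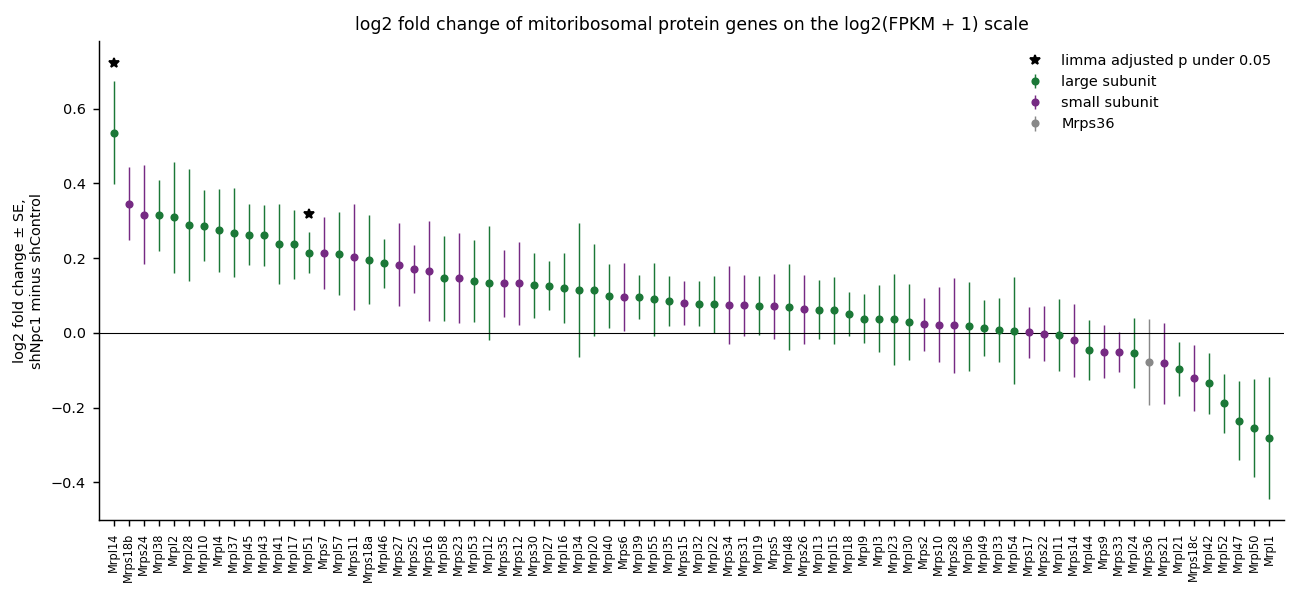
log2 fold change ± SE (shNpc1 minus shControl, n = 3 each, log2(FPKM + 1) scale) of the 78 genes in falling order, coloured by subunit, with a star for an adjusted p under 0.05. Values run from 0.53 for Mrpl14 to -0.28 for Mrpl1, and Mrpl14 and Mrpl51 carry the star.

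Mrpl14 (gene 68463) had the highest fold change of the set. Its product is shared with bacteria and lies on the face of the large subunit that meets the small one, where the assembly factor Malsu1 binds it. It had 107.7, 74.7 and 86.6 FPKM in the shNpc1 libraries, against 59.6, 67.5 and 56.2 FPKM in the shControl libraries. Every shNpc1 value lay above every shControl value, with replicate 4 highest. The means were 89.7 ± 16.7 FPKM in shNpc1 and 61.1 ± 5.80 FPKM in shControl libraries (SD, n = 3 each), which on the log2 scale is a difference of 0.53 (SE 0.14; limma, adjusted p = 0.0404). For this gene the log2 ratio is 0.51 and q is 0.0340 in the authors' deposited table. Mrpl14 overlaps Tmem63b, a membrane channel gene, in the RefSeq gene table. Tmem63b had 15.3, 14.7 and 14.1 FPKM in shNpc1 and 10.7, 10.2 and 11.3 FPKM in shControl libraries and also rose (log2 0.42, SE 0.07, limma adjusted p = 0.00973), though without shControl replicate 1 or 2 it was not called (adjusted p up to 0.0583). Overlap here means that the spans of the genes from start to end meet, and shared exons were not looked for. It is also not given whether the libraries kept strand. How far reads of these genes can be told apart is therefore not known.

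Mrpl51 (gene 66493), a mitochondria-specific protein of the large subunit, had a smaller change and a narrower spread. It had 52.12, 54.54 and 54.47 FPKM in the shNpc1 libraries, against 45.63, 46.03 and 46.74 FPKM in the shControl libraries. Replicate 4 was here the lowest of the 3 shNpc1 libraries, and still above all controls. The means were 53.7 ± 1.38 FPKM in shNpc1 and 46.1 ± 0.562 FPKM in shControl libraries (SD, n = 3 each), which on the log2 scale is a difference of 0.21 (SE 0.05; limma, adjusted p = 0.0373). In the authors' deposited table its log2 ratio is 0.20 and its q 0.150. Of the 78 genes, that table has 1 with q under 0.05 as higher, Mrpl14, and 0 as lower; of all 15917 rows 12.1% pass.

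The call of both genes depended on the libraries used and on the processing. With all 6 libraries, Mrpl14 was not called without a filter or after median centring or trimmed mean of M values scaling (limma adjusted p of 0.0586 to 0.0722). Mrpl51 was not called after these scalings (0.0730 and 0.0713). It was also not called with TPM (0.128), with quantiles (0.0895) or without the trend (0.0511). Without shControl replicate 1, 2 or 3, or without shNpc1 replicate 6, 0 of the 78 genes were called in either direction, while of all tested genes between 4.51% and 6.94% were called. Without shNpc1 replicate 4, 6 rose and 3 fell, and without shNpc1 replicate 5, 10 rose and 1 fell; then 28.4% and 25.3% of all tested genes were called. Mrpl14 passed in 14 and Mrpl51 in 11 of 21 alternatives, with adjusted p of 0.000503 to 0.150 and 0.000749 to 0.159. Their log2 fold changes were 0.40 and 0.24 without shNpc1 replicate 4, against 0.53 and 0.21 with all libraries.

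The promoters of the called genes, and of the 2 genes whose shNpc1 values all lay below the controls, are given to show which letters known to be bound by regulators of mitochondrial genes they hold. They are RefSeq entries of build GRCm38.p6, from 250 bases before to 50 after the start of the gene: Mrpl51 at chr6:125191950-125192249 and Mrpl14 at chr17:45686099-45686398 on the plus strand, Mrpl47 at chr3:32736706-32737005 and Mrpl50 at chr4:49521034-49521333 on the minus strand. Capitals mark a match to any of 5 motifs searched on both strands: GCGCA, any base and GCGC for NRF1, CCGGAAG for ETS factors such as GABP, AAGATGGC for YY1, TCACNCCAC for SREBP and CACGTG, the E-box. The ETS and YY1 letters can overlap by AAG.
Mrpl51: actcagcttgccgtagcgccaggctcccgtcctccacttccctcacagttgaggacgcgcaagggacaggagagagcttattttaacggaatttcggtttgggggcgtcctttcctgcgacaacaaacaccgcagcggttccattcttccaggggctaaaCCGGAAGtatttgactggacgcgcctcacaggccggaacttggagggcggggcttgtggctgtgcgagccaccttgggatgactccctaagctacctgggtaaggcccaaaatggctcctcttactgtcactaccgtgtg
Mrpl14: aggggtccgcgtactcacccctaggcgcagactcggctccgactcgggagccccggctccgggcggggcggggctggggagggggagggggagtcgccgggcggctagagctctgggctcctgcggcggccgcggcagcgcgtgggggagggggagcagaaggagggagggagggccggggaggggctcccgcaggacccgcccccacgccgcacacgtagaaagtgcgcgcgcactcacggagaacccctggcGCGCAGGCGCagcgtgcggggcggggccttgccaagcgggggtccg
Mrpl47: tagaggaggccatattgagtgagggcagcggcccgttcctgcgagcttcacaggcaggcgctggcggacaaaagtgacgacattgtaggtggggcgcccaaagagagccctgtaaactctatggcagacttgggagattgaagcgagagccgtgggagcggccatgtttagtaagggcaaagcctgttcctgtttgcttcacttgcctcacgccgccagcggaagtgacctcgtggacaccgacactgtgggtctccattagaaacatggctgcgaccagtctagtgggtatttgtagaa
Mrpl50: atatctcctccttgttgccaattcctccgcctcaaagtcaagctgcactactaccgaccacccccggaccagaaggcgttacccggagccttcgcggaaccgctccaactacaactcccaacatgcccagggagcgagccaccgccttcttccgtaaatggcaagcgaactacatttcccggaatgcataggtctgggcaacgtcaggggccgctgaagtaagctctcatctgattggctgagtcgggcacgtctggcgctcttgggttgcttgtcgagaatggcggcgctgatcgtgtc
The Mrpl51 promoter held the ETS letters and the Mrpl14 promoter those of NRF1. No match was found in those of Mrpl47 and Mrpl50, which says only that these letters are not in these windows.

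NRF1 and GABP are transcription factors known to act on many nuclear genes for mitochondrial proteins. For 69 of the 78 genes 75 promoter entries were given. The ETS letters stood in 34.7% of the 75, against 19.2% of 10781 promoters of tested genes and 8.86% of all 32851 promoters. Those of YY1 stood in 16.0%, against 4.81% and 2.75%, and those of NRF1 in 17.3%, against 10.7% and 4.6%. The E-box was in 9.33%, against 10.3% and 7.15%. The SREBP letters were in 0 of the 75, against 1.05% of the promoters of tested genes and 1.24% of all. These shares are a description without a test. At least 1 of the ETS, YY1 and NRF1 motifs was found for 43 genes and none of these for 26. The median log2 fold change was 0.12 for the 26 genes with the ETS letters and 0.079 for the 43 without, 0.16 for 12 with and 0.076 for 57 without those of YY1, and 0.0775 for 13 with and 0.0875 for 56 without those of NRF1.

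Among the other genes at the upper end, Mrps18b, a mitochondria-specific protein of the small subunit, just missed the threshold. It had 142.2, 114.0 and 118.6 FPKM in shNpc1 and 91.2, 101.7 and 100.4 FPKM in shControl libraries, with no overlap (log2 0.35, SE 0.10, limma adjusted p = 0.0507). It passed as higher in 9 of 21 alternatives, with adjusted p of 0.00216 to 0.186. Mrpl38, of the large subunit, had 44.2, 35.8 and 35.8 FPKM in shNpc1 and 31.6, 31.3 and 29.2 FPKM in shControl libraries, also with no overlap (log2 0.31, limma adjusted p = 0.0624). Mrps24, of the small subunit, had 99.2, 68.7 and 81.0 FPKM in shNpc1 and 61.6, 70.7 and 65.3 FPKM in shControl libraries, where replicate 5 lay within the controls (log2 0.32, adjusted p = 0.142). Mrpl2, which lies near the site of peptide bond formation, had 111.0, 72.5 and 82.4 FPKM in shNpc1 and 67.3, 72.7 and 70.9 FPKM in shControl libraries (log2 0.31, adjusted p = 0.187). In Mrps24 and Mrpl2 alike, replicate 4 stood well above the other libraries and replicate 5 among the controls.

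The 5 lowest fold changes were all of large-subunit genes, and none of these passed. Mrpl1, of the mobile stalk at which spent tRNA leaves, had 19.4, 31.7 and 26.1 FPKM in shNpc1 and 32.3, 28.9 and 31.4 FPKM in shControl libraries, which overlapped (log2 -0.28, SE 0.16, limma adjusted p = 0.262). Mrpl50 had 19.6, 27.4 and 26.6 FPKM in shNpc1 and 31.4, 27.4 and 28.6 FPKM in shControl libraries (log2 -0.25, adjusted p = 0.215). Replicate 5 of Mrpl50 lay below control replicate 2 by 27.37 against 27.43 FPKM, so that the groups barely separated. Mrpl47, whose bacterial counterpart sits at the exit of the peptide tunnel, had 39.76, 48.96 and 51.43 FPKM in shNpc1 and 53.98, 52.30 and 58.34 FPKM in shControl libraries (log2 -0.23, adjusted p = 0.163). In these 3 genes replicate 4 was the lowest library. Without it, Mrpl1, Mrpl50 and Mrpl47 had smaller log2 fold changes of -0.099, -0.11 and -0.13, with no call. Mrpl52 had 150.9, 125.8 and 131.8 FPKM in shNpc1 and 157.1, 156.6 and 150.8 FPKM in shControl libraries, and Mrpl42 had 213.3, 182.4 and 177.4 FPKM in shNpc1 and 207.4, 212.5 and 207.6 FPKM in shControl libraries. Here replicate 4 was the one shNpc1 library that reached the controls (log2 -0.19 and -0.13, adjusted p = 0.142 and 0.278). Without shNpc1 replicate 4, Mrpl52 (log2 -0.26, adjusted p = 0.00562; 0.000512 to 0.346 over the alternatives) and Mrpl42 (log2 -0.22, adjusted p = 0.00992; 0.00172 to 0.657) passed as lower.

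**Figure D3:**
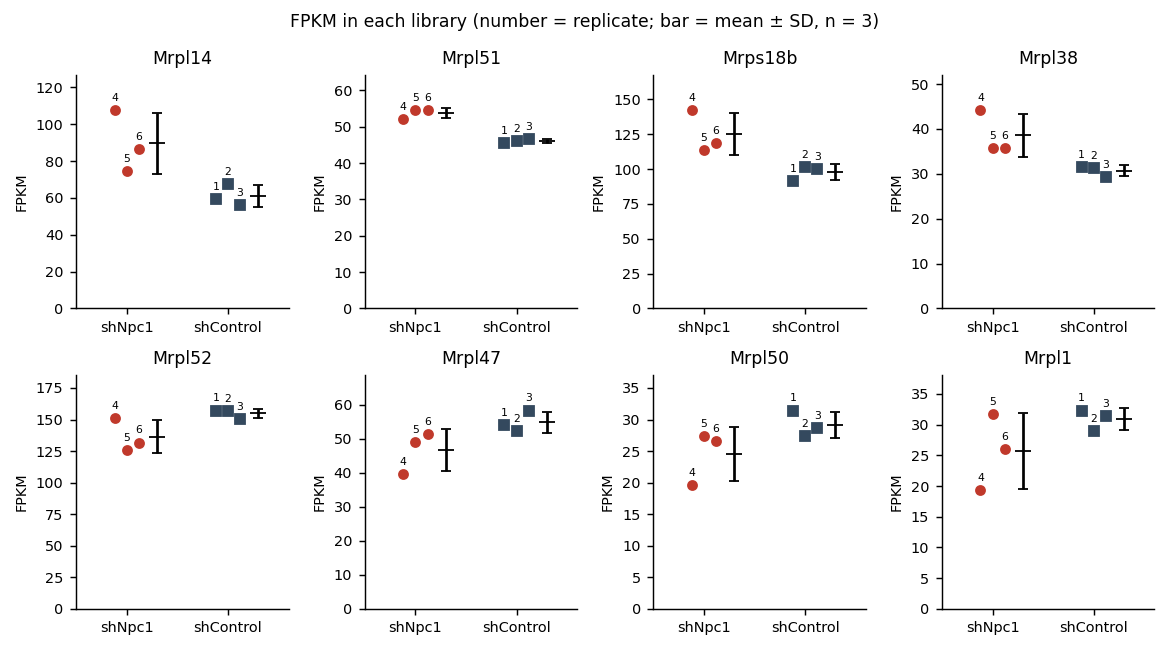
FPKM in each library for 8 genes from the upper end (top row) and lower end (bottom row), with replicate numbers and mean ± SD (n = 3) beside the points, shNpc1 left of shControl. In Mrpl14 replicate 4 is the highest library at 107.7 FPKM, and in Mrpl1 it is the lowest at 19.4 FPKM.

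The shNpc1 libraries differed among themselves in the same genes. Of the 78 genes 57 had their highest value in shNpc1 replicate 4 (73.1%) and 4 their lowest (5.13%). Over all tested genes, replicate 4 was highest for 37.3% and lowest for 36.5%. The lowest value fell in shControl replicate 1 for 34 genes and in shNpc1 replicate 5 for 28. The summed FPKM of the 78 genes was 6413, 5287 and 5691 in shNpc1 replicates 4, 5 and 6, and 5306, 5697 and 5528 in shControl replicates 1, 2 and 3. Replicates 5 and 6 thus lay close to or within the range of the controls. As a share of a library's summed FPKM the set held 0.847%, 0.799% and 0.826% in shNpc1 and 0.787%, 0.796% and 0.795% in shControl libraries. The median coefficient of variation was 11.2% in shNpc1 and 4.71% in shControl libraries, and 11.4% and 5.18% over all tested genes.

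The deviation in replicate 4 went with the base composition of the transcripts. The deviation of a gene is its log2(FPKM + 1) value in a library minus the mean of the shControl libraries. GC content was that of the longest protein-coding transcript in GENCODE M21, which may differ from the transcript behind the FPKM values, with a median of 50.01% for the 78 genes and 49.9% for 10247 tested genes. Across the 78 genes, the deviation and GC content had a Pearson correlation of 0.60 in replicate 4, 0.14 in replicate 5 and 0.18 in replicate 6. In shControl replicates 1, 2 and 3 it was -0.12, 0.19 and -0.097. Across the 10247 genes these were 0.63, 0.10 and 0.31 in the shNpc1 libraries and -0.41, 0.41 and 0.029 in the shControl libraries, so that shControl replicates 1 and 2 had larger correlations in size than shNpc1 replicates 5 and 6. The points share a library and the control mean, and genes are not independent replicates. In replicate 4 the median deviation was 0.13 for the 19 genes under 46% GC and 0.48 for the 19 genes over 54%. In replicate 5 these medians were -0.032 and 0.016, and in replicate 6 they were 0.062 and 0.12. After subtraction of a spline on GC content from each library, 3 genes rose and 2 fell, and 25.3% of all tested genes were called. Those that then rose were Mrpl14 (log2 0.36), Mrpl51 (0.31) and Mrps18b (0.24), and those that fell were Mrpl52 (-0.35) and Mrpl21. Positive values were then found for 48 genes and negative ones for 30. The part of base composition in the other results was not tested.

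**Figure D4:**
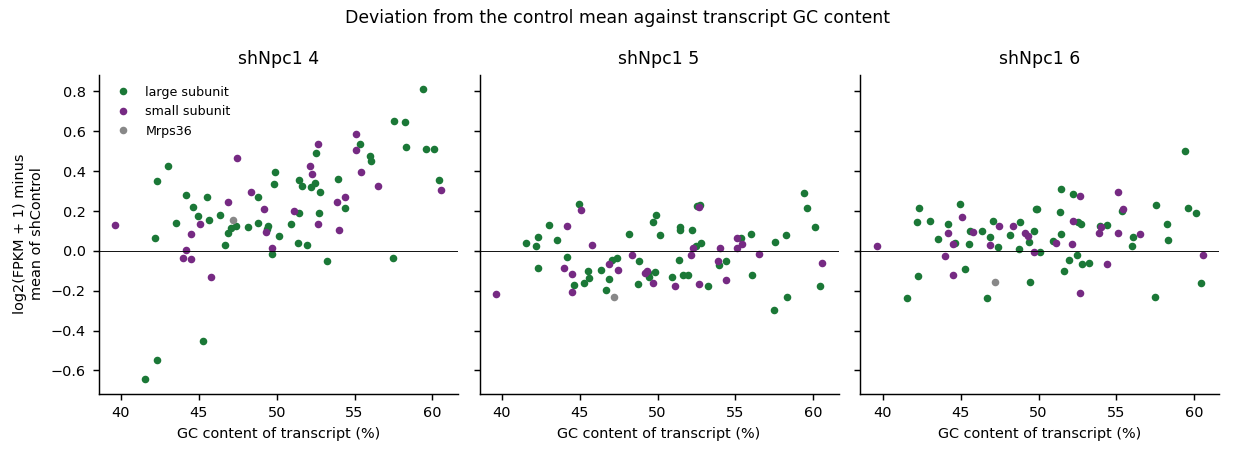
Deviation of each of the 78 genes from the control mean (log2(FPKM + 1)) against the GC content of its transcript (%), 1 panel for each shNpc1 library, coloured by subunit. The points slope upwards in replicate 4, with a correlation of 0.60, and much less in replicates 5 and 6, at 0.14 and 0.18.

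The values of both subunits were close to each other in each library. Of the 51 large-subunit genes 2 rose and 0 fell (3.92%, against 17.9% of all tested genes called). Their median log2 difference was 0.090. Of the 26 small-subunit genes 0 rose and 0 fell in limma, with 3 higher (11.5%, against 21.9% of all tested genes) and 0 lower at an unadjusted p under 0.05 and a median of 0.075. The median deviation of the large-subunit genes was 0.22, -0.033 and 0.085 in shNpc1 replicates 4, 5 and 6, and that of the small-subunit genes 0.23, -0.054 and 0.086. Of the 46 genes shared with bacteria 1 rose and 0 fell (2.17%), with a median of 0.072. Of the 31 mitochondria-specific genes 1 rose and 0 fell (3.23%), with a median of 0.13. Both shares lay under the 17.9% called of all tested genes. Mrpl10, of the stalk that recruits elongation factors, had 53.3, 44.2 and 41.8 FPKM in shNpc1 and 36.4, 38.4 and 38.2 FPKM in shControl libraries (log2 0.29, limma adjusted p = 0.0819). Mrpl45, which ties the ribosome to the inner membrane, had 24.4, 20.8 and 21.3 FPKM in shNpc1 and 17.4, 18.2 and 19.2 FPKM in shControl libraries (log2 0.26, adjusted p = 0.0679). Mrps7, a small-subunit protein shared with bacteria, had 64.9, 50.3 and 57.0 FPKM in shNpc1 and 47.2, 49.9 and 50.2 FPKM in shControl libraries (log2 0.21, adjusted p = 0.167). In all 3 the groups did not overlap, and in Mrps7 replicate 5 exceeded the highest control by less than 0.1 FPKM. These 3 genes were chosen after their values were seen. Of the 51 large-subunit genes 15 had all shNpc1 values above all controls and 2 all below. Of the 26 small-subunit genes these were 3 and 0. Over all tested genes the shares were 27.4% above and 16.1% below. Mrps36 had 35.2, 26.7 and 28.2 FPKM in shNpc1 and 28.6, 33.3 and 32.9 FPKM in shControl libraries, which overlapped.

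**Figure D5:**
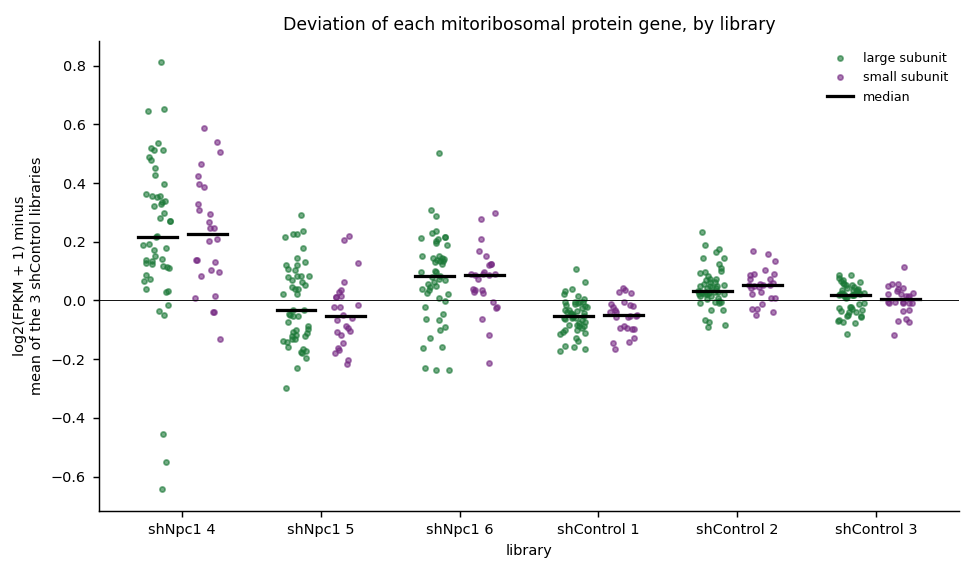
Deviation of each large-subunit and small-subunit gene from the control mean (log2(FPKM + 1)) in the 6 libraries, with black bars for the medians. The bars of both subunits stand near 0.22 in shNpc1 replicate 4, below zero in replicate 5 and near 0.085 in replicate 6.

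Some mitoribosomal proteins carry other symbols. Of 5 such genes 0 rose and 0 fell in limma, and 0 had an unadjusted p under 0.05. Dap3, a GTP-binding protein of the small subunit, had 77.8, 64.2 and 66.9 FPKM in shNpc1 and 66.8, 73.8 and 72.7 FPKM in shControl libraries. Ptcd3, an RNA-binding protein of the small subunit, had 29.6, 42.9 and 41.1 FPKM in shNpc1 and 45.3, 45.3 and 44.6 FPKM in shControl libraries, all below (log2 -0.26, adjusted p = 0.213). Aurkaip1 had 31.8 to 42.4 FPKM in shNpc1 and 32.4 to 39.7 FPKM in shControl libraries, and Chchd1 172.6 to 210.8 and 150.6 to 177.6 FPKM; both are of the small subunit and overlapped. Gadd45gip1, of the large subunit, had 17.5 to 22.2 FPKM in shNpc1 and 16.0 to 18.3 FPKM in shControl libraries.

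Genes that build, feed and use the mitochondrial ribosome were read beside its proteins. Of 27 measured assembly factors 2 rose and 0 fell (7.41%, against 17.9% of all tested genes called). Their median log2 difference was 0.058. Mtg1, a GTPase that acts on the large subunit, had 12.4, 12.4 and 11.6 FPKM in shNpc1 and 8.80, 9.43 and 9.91 FPKM in shControl libraries (log2 0.34, SE 0.07, limma adjusted p = 0.0221). Trub2, a pseudouridine synthase family member found in mitochondrial RNA granules, had 17.1, 15.4 and 15.2 FPKM in shNpc1 and 12.59, 12.04 and 12.87 FPKM in shControl libraries (log2 0.32, SE 0.07, limma adjusted p = 0.0252). Neither was called without shControl replicate 1, 2 or 3 or without shNpc1 replicate 6, nor Trub2 with median centring, with adjusted p of up to 0.109 for Mtg1 and 0.107 for Trub2 over all alternatives.

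Mitochondrial aminoacyl-tRNA synthetases load the tRNAs that the ribosome uses. Of 17 of their genes 0 rose and 3 fell (17.6%), while 5.89% of all tested genes fell. The median log2 difference was 0.028. Together with the amidotransferase subunits below, which were set apart after their values were seen, 15.0% of 20 genes were called. Of 3 subunits of the amidotransferase that completes glutaminyl-tRNA, Gatb, Gatc and Qrsl1, 0 rose and 0 fell in limma (0 higher and 1 lower at an unadjusted p under 0.05). Mars2, for methionine, had 6.63, 6.83 and 6.45 FPKM in shNpc1 and 9.25, 9.40 and 9.24 FPKM in shControl libraries (log2 -0.43, SE 0.06, limma adjusted p = 0.00719). Cars2, for cysteine, had 5.47, 5.92 and 4.54 FPKM in shNpc1 and 7.58, 7.48 and 8.07 FPKM in shControl libraries (log2 -0.47, SE 0.10, adjusted p = 0.0209). In both genes every shNpc1 value lay below every control. After the GC correction Mars2 had a log2 fold change of -0.13 and was not called (adjusted p = 0.541; highest over all alternatives 0.850). Mars2 was also lost without shControl replicate 3 (adjusted p = 0.0510), and Cars2 without shControl replicate 1, 2 or 3 or shNpc1 replicate 6 (highest 0.1005).

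In limma 0 of 15 translation factors rose or fell (3 lower and 0 higher at an unadjusted p under 0.05), 0 of 16 genes of mitochondrial transcription and RNA handling (4 lower and 1 higher), 0 of 4 genes that replicate mitochondrial DNA (0 lower and 1 higher, Polg) and 0 of 8 regulators of mitochondrial biogenesis (1 lower and 0 higher). At that unadjusted p, 12.8% of all tested genes were lower and 21.9% higher. The median log2 fold change was 0.049 for the translation factors, -0.15 for transcription and RNA handling, 0.018 for replication and -0.11 for the regulators. The replication genes were set apart from transcription and RNA handling after their values were seen. The undivided list of 20 genes had a median of -0.079, with 2 higher and 4 lower at an unadjusted p under 0.05. The mRNAs that the mitochondrial ribosome translates were not analysed here. For comparison, of 84 cytosolic ribosomal protein genes 0 rose and 3 fell (3.57%, with 5.89% of all tested genes lower), with a median of -0.098. Of 79 respiratory chain and ATP synthase subunits chosen by symbol 0 rose and 0 fell in limma (6 higher and 1 lower at an unadjusted p under 0.05). Their median was 0.10. In replicates 4, 5 and 6 the median deviation was 0.087, -0.24 and -0.13 for the cytosolic ribosomal genes and 0.30, -0.066 and 0.068 for the respiratory chain genes.

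In the RefSeq gene table, 25 of the 78 genes overlap another gene, 20 of them a protein-coding one. The median log2 fold change was 0.13 for those 25 and 0.076 for the other 53. Of 19 tested partner genes 2 rose and 0 fell, Tmem63b and Cyb5rl, which overlaps Mrpl37 (log2 0.38, SE 0.10, limma adjusted p = 0.0443; called in 11 of 20 alternatives, with adjusted p up to 0.150). Of the 78 genes 4, Mrpl23, Mrpl27, Mrpl48 and Mrps36, share their symbol with RefSeq pseudogenes, so that reads may be split between copies.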

How the data were processed

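FPKM values, which the authors deposited in 1 table of 15917 genes rounded to 2 decimals, were analysed for 6 libraries of oligo(dT)-selected RNA, per the labels' protocols. The same table holds the authors' log2 ratio, p-value and q-value for knockdown against control. For these, the aligner, counting program, genome build, annotation and test were not given in the sources used here, and depth is unknown.

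Each of 10400 genes whose mean reached 1 FPKM was put on the log2(FPKM + 1) scale. The group difference was fitted by limma 3.58.1 under R 4.3.3 (intensity trend, two-sided, Benjamini-Hochberg over all tested genes, threshold 0.05). The fit was also run on simulated data, in which a gene's noise was independent and of equal size in every library. Such data lack the differences between libraries seen here, so they cannot show how the fit deals with them. Alternatives were other pseudocounts, filters, scalings and fits, a spline on GC content (5 degrees of freedom) alone or with length, and each library left out. The GC correction without shNpc1 replicate 4 was added after seeing the data. Sample weights were estimated gene by gene, since the default estimate did not converge. The numbers 1 to 3 and 4 to 6 pair no samples.

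Genes named were those past the threshold, the 5 highest and 5 lowest fold changes, the 4 highest and 4 lowest levels, mitoribosomal proteins with other symbols, list members past the threshold (1 is not reported here), and, chosen after their values were seen, Mrpl10, Mrpl45, Mrps7, Tmem63b and Cyb5rl. Amidotransferase subunits and DNA replication genes were set apart from their lists after their values were seen. The members and lists were chosen with earlier results of these data known.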

Additional observations from a re-analysis of the deposited data

How the results depend on the processing

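The median log2 fold change of the 78 genes lay between 0.032 and 0.080 under the other pseudocounts, filters, scalings, fits and corrections, between 0.024 and 0.137 with 1 library left out, and at -0.029 with the GC correction and without shNpc1 replicate 4. The counts of genes that rose and fell moved more. Without a filter 1 rose, without the trend 1 rose, and after median centring, or scaling by trimmed mean of M values, 0 rose. With TPM 7 rose and 1 fell, with quantiles 2 and 1, with the GC correction 3 and 2, and with GC and length 4 and 1. With sample weights, which gave shNpc1 replicate 4 a weight of 0.116 and replicate 6 one of 3.65, 19 rose and 5 fell. With the GC correction and without shNpc1 replicate 4, 3 rose and 9 fell. With 1 library left out, 0 to 10 rose and 0 to 3 fell. The causes were not tested.

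Over all tested genes 1251 rose and 613 fell. With sample weights these were 2969 and 2008; 1210 fell with the GC correction, 1438 with GC and length, and 1664 with the GC correction and without shNpc1 replicate 4. With 1 library left out 309 to 1907 rose and 160 to 1082 fell. Npc1 was called as lower in every alternative in which it was tested, with log2 fold changes of -2.19 to -1.89 when 1 library was left out; it is under the filter of 5 FPKM.

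Some genes with small fold changes changed sign, and none was called where its sign had changed. Mrpl33 had -0.0078 with TPM, -0.018 after median centring, -0.031 after trimmed mean of M values scaling, -0.042 with quantiles, -0.060 with the GC correction and without shNpc1 replicate 4, and -0.036 to 0.08 with 1 library left out, negative without shNpc1 replicate 4 or 6 or shControl replicate 1. With the GC correction, with length added, and with it but without shNpc1 replicate 4, Mrpl18 had -0.011, -0.032 and -0.019, and Aurkaip1 had -0.097, -0.11 and -0.12. With 1 library left out Aurkaip1 had -0.036 to 0.17, negative without shNpc1 replicate 4 or shControl replicate 1. Mrps18c had 0.010 with GC and length, and Dap3 -0.11 to 0.022 with 1 library left out, positive without shNpc1 replicate 5. No paired analysis was possible because the groups share no replicate number. With 3 libraries a group and unknown depth, changes smaller than the intervals given could not be seen.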
